A study of Mus musculus with 12 samples.

Results

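Choroid plexus of the embryo at E12.5 (embryonic day) was compared with choroid plexus on the day of birth (P0), across every gene that reached 1 TPM (a relative transcript level adjusted for transcript length) in at least 3 of the 6 libraries of these ages. That rule kept 16658 of the 52459 gene symbols in the table. Each age had 3 libraries of tissue dissected from mice of strain B6, with no transgene, mutation or treatment named in the labels for these groups. The table also holds 3 libraries each of P14 (postnatal day 14) and A6m (6 months), which entered the fit for its estimate of spread and are described here only where a gene that differed between E12.5 and P0 was followed further. The labels say that the specimens of a datapoint were independent, without giving the sex, the ventricle or the number of animals behind a library.

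The choroid plexus is a folded sheet of epithelium over a core of vessels and fibroblasts that hangs into the brain ventricles and makes cerebrospinal fluid. It grows out of the roof plate and the cortical hem, midline signalling centres of the embryonic brain that release Wnt and bone morphogenetic proteins (BMPs), and after birth it works as a secretory gland and as a barrier between blood and fluid. Transcription factors bind DNA and set which genes are read, receptors take signals from outside the cell, and secreted factors leave the cell and can act in the cerebrospinal fluid or on neighbouring tissue. These 3 classes are described in depth below, in families compiled by hand from gene names.

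The tissue label was checked against marker genes. Of 14 choroid plexus epithelium markers 13 were called higher at P0 and 0 lower, and their summed level was 13078 to 24070 TPM at E12.5 and 149960 to 151619 TPM at P0. Most of that sum was the marker Ttr, with 1.12% to 2.10% of all TPM at E12.5 and 14.1% to 14.3% at P0. The lowest of these sums was E12.5 replicate 1, in which 8 ribosomal RNA-associated features took 16.4% of all TPM, against 1.84% to 3.28% in the other 5 libraries. Xist stood at 139 and 89.5 TPM in E12.5 replicates 1 and 3 and at 0.689 TPM or less in the other 4 libraries. Ddx3y, a gene of the Y chromosome, stood at 9.26, 54.4 and 50.9 TPM at E12.5 and at 117, 115 and 108 TPM at P0. Sex and age are thus partly confounded. Genes of the X and Y chromosomes were therefore kept out of the largest changes named in each class, but they remain in the class and family counts. Markers of other cells moved as well. Of 14 erythroid markers 13 were called lower and 1 higher, with sums of 55825 to 62881 TPM at E12.5 and 6656 to 13506 TPM at P0. Most of these sums came from globin genes, which took 5.56% to 6.26% of all TPM at E12.5 and 0.664% to 1.35% at P0. In the neural progenitor list 7 of 11 were lower and 0 higher (sums of 1049 to 1591 and 431 to 505 TPM), in the neuron list 6 of 14 lower and 1 higher (83.2 to 298 and 56.8 to 84.7 TPM), in the endothelium list 12 of 14 lower and 0 higher (518 to 559 and 260 to 356 TPM), in the fibroblast and meninges list 10 of 13 lower and 3 higher (1357 to 1757 and 917 to 939 TPM) and in the list of dividing cells 11 of 12 lower and 0 higher (1166 to 1257 and 248 to 255 TPM). No marker on these lists was listed at 0 in all 6 libraries. In bulk tissue fewer cells of a type and less RNA per cell cannot be told apart.

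A gene was called higher or lower at P0 when the limma test passed a Benjamini-Hochberg adjusted p of 0.05 on the values as deposited and again after median-of-ratios scaling, which sets the middle of all genes to no change, with the same sign. Rose and fell refer to such genes. The log2 differences given are P0 minus E12.5 on log2(TPM + 1) after scaling, with their standard error (SE), and understate the change of low genes. Each adjusted p is the larger of those from both scales. By this rule 8556 genes (51.4%) were called. Of all tested, 3132 genes (18.8% of those tested) were called higher at P0 and 5424 (32.6%) lower, and no gene was called in opposite directions on the 2 scales. As deposited alone 64.5% were called (18.8% higher and 45.7% lower), and after scaling alone 62.2% (29.6% and 32.6%). The call rested on the deposited scale only for 13.1% and on the scaled one only for 10.8%, and these are not called here. Called genes that also differed at least 2-fold after scaling made up 9.53% (higher) and 9.74% (lower). The 3 libraries of 1 age did not overlap those of the other for 64.4% of genes as deposited, 19.2% higher and 45.2% lower. The median log2 difference of all tested genes was -0.29 as deposited and -0.03 after scaling. A further 670 tested genes reached 1 TPM in E12.5 libraries only and 324 in P0 libraries only. These entered through the age where they were high, and the shares of calls given here include them.

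The 3 classes divided differently. Of 427 tested transcription factors (of 705 listed) 75 rose (17.6%) and 196 fell (45.9%), and their median log2 difference was -0.23. Of 349 tested receptors (of 624 listed) 77 rose (22.1%) and 151 fell (43.3%), with a median of -0.21. The receptor class also holds ephrins and Notch ligands. Of 366 tested secreted factors (of 672 listed) 128 rose (35.0%) and 121 fell (33.1%), with a median of 0.08. As deposited alone the secreted class had 128 higher and 149 lower and a median of -0.14, so its balance and the sign of its median depended on the scaling. The share of risers among transcription factors lay near the 18.8% of all genes, that among secreted factors above it. Summed over its listed genes, the secreted class took 24079 to 35707 TPM at E12.5 and 164305 to 166196 TPM at P0, of which Ttr, the carrier of thyroid hormone and vitamin A, was the largest item with 11199.8, 14128 and 21003 TPM and 143164, 141192 and 141475 TPM. The transcription factors together took 9044 to 11563 TPM and 7858 to 8179 TPM.

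**Figure D1:**
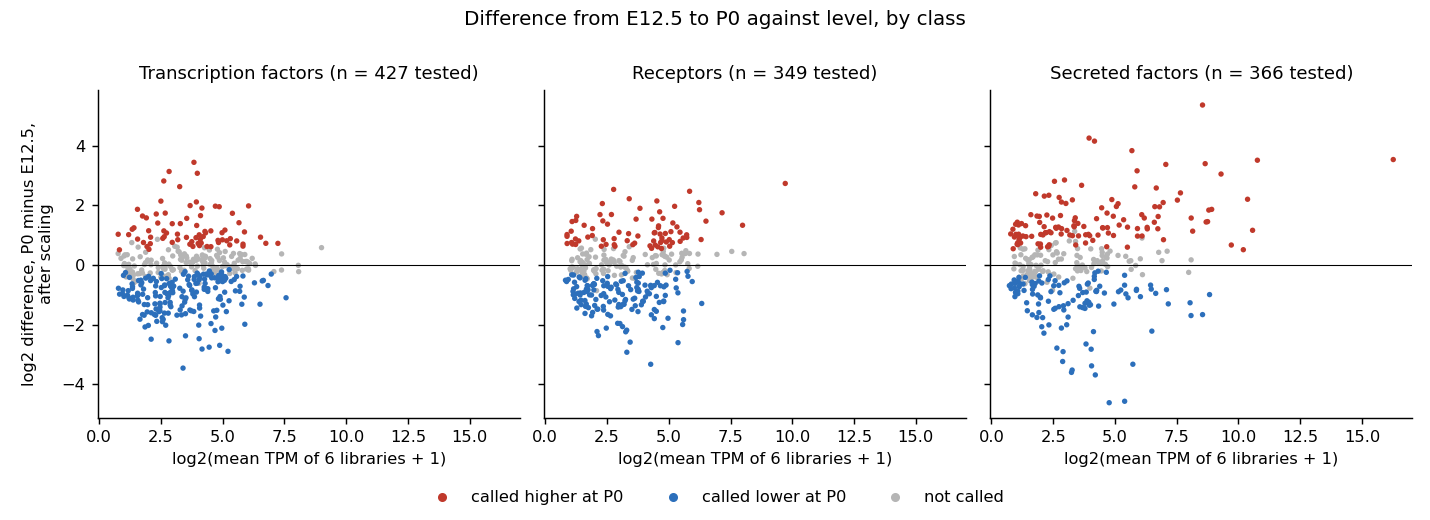
Each point is a tested gene of the class named above the panel, by its mean level over the 6 libraries (x axis, log2 of TPM + 1) and its log2 difference between P0 and E12.5 after scaling (y axis). Red points were called higher at P0, blue points lower and grey points neither. The blue points outnumber the red ones among transcription factors (196 against 75) and receptors (151 against 77), whereas the secreted factors hold 121 blue and 128 red points.

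Within the classes, the families with the largest share of falls among tested members were the Wnt and R-spondin ligands (12 of 14 tested, 85.7%) and the POU factors (5 of 6). The guidance receptors, a list that includes ephrins (19 of 25, 76.0%), and the homeodomain factors outside the Hox clusters (34 of 47, 72.3%) followed. The families with the largest share of rises were carriers and apolipoproteins (23 of 29, 79.3%), protease inhibitors (19 of 33, 57.6%), Wnt receptors (8 of 15, 53.3%), insulin-like factors and their binding proteins (7 of 14, 50%) and nuclear receptors (15 of 34, 44.1%). Each of these 9 families kept its majority direction on either scale by itself, under quantile normalization and when E12.5 replicate 1 was left out. Some of these members reached 1 TPM at 1 age only, which the filter favours. Among members at 1 TPM in all 6 libraries, 5 of 6 Wnt and R-spondin genes, 2 of 3 POU factors, 17 of 23 guidance receptors and 27 of 39 homeodomain factors fell, while 19 of 23 carriers, 13 of 25 inhibitors, 8 of 15 Wnt receptors, 5 of 12 insulin-like factors (with 5 falling) and 9 of 26 nuclear receptors (with 7 falling) rose. The bZIP factors were different: 11 rose and 6 fell on both scales, but 11 rose and 13 fell as deposited alone.

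**Figure D2:**
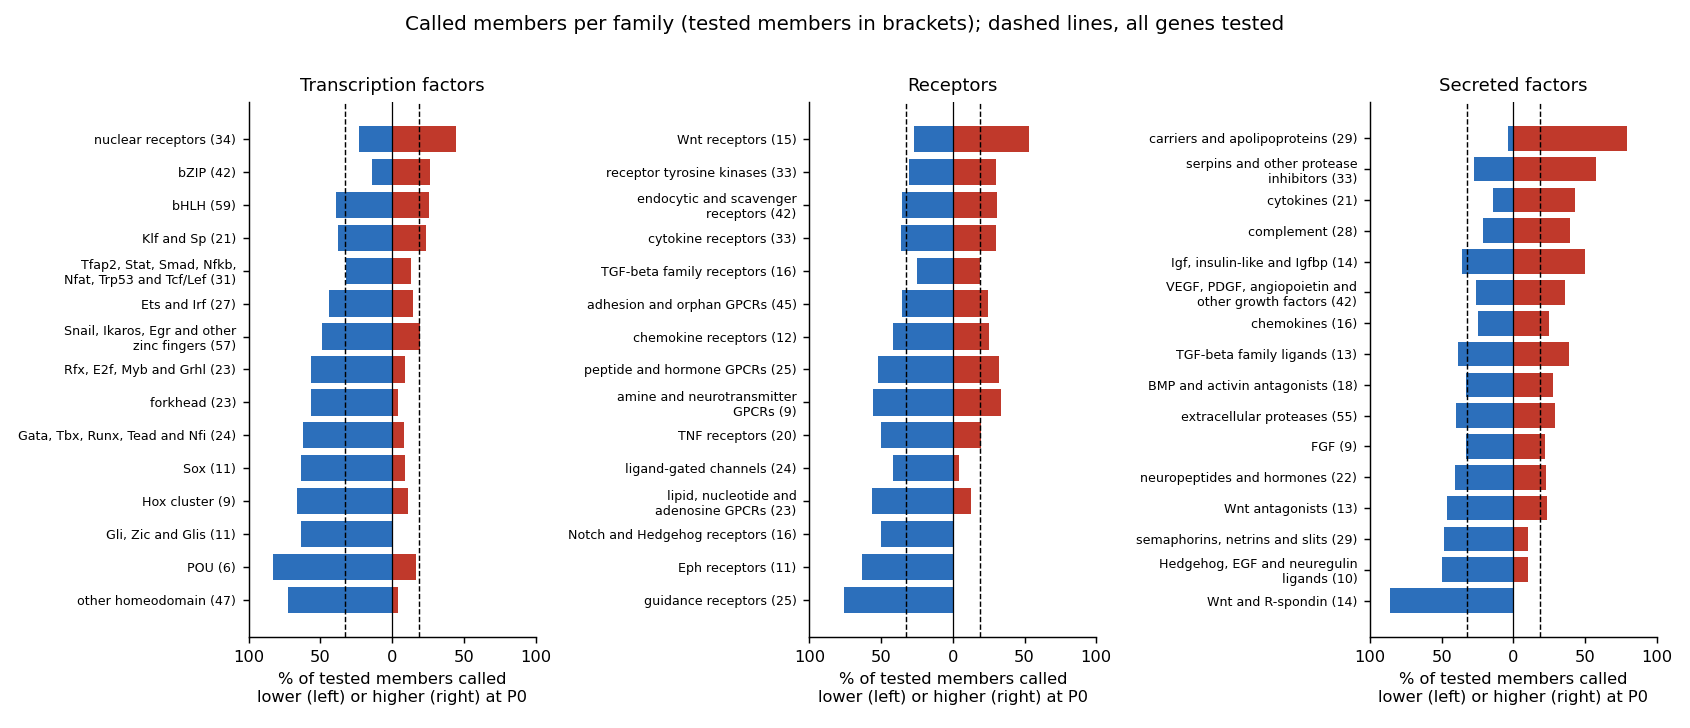
Bars give the percentage of tested members of each family that were called lower (blue, to the left) or higher (red, to the right) at P0, with the number of tested members in brackets, for families with at least 5. Dashed lines mark the shares over all 16658 genes tested (32.6% lower, 18.8% higher). Wnt and R-spondin ligands and guidance receptors (a list that includes ephrins) have no red bar, and carriers and apolipoproteins have the longest, at 79.3%.

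Many of the transcription factors that fell belong to families known for patterning the early embryo. Homeodomain factors outside the Hox clusters recognise DNA through a shared fold and give regions of the embryo their identity: 34 of 47 tested fell and 2 rose, with a median log2 difference of -0.76. Msx2 (GRCm38, chr13:53466884-53473074, as are all gene positions here), a BMP-responsive homeodomain gene of the roof plate and skull mesenchyme, stood at 60.4, 82.7 and 55.3 TPM in E12.5 replicates 1 to 3 and at 6.28, 6.26 and 6.04 TPM at P0 (log2 difference -2.90 ± 0.14, adjusted p = 2.32e-08). Its libraries did not overlap between the ages, which the naming rule required. Dmbx1, a homeodomain gene of the embryonic midbrain, was at 7.38, 5.94 and 6.46 TPM and then at 0, 0.0161 and 0.0409 TPM. Both rises in this family were smaller: Hopx, which encodes an atypical homeodomain protein that does not bind DNA, went from 8.79, 12.2 and 18.02 to 48.6, 42.1 and 38.7 TPM (log2 difference 1.95 ± 0.14), and Prox2 by 0.95 ± 0.19, a call that was lost without E12.5 replicate 1, P0 replicate 2 or P0 replicate 3. Lmx1a, which helps to specify roof plate and hem, was at 71.1, 66.6 and 89.9 and 55.8, 52.3 and 55.7 TPM and did not pass on both scales (adjusted p = 0.118), and Otx2, a regulator of choroid plexus development, was at 356, 481 and 553 and 556, 574 and 550.1 TPM (adjusted p = 0.055, with overlapping libraries).

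Sox, forkhead and Gli/Zic genes followed with 7 of 11, 13 of 23 and 7 of 11 falling and 1, 1 and 0 rising. Under scaling alone 2, 4 and 2 of these rose, so the balance held while the count of rises did not. Sox11, a factor of progenitors and immature neurons, fell from 22.1, 41.4 and 30.4 to 3.03, 2.82 and 1.89 TPM (log2 difference -2.82 ± 0.18, adjusted p = 2.30e-07). Sox5, related in its DNA-binding domain, was the 1 Sox gene that rose (7.98, 15.9 and 15.4 to 23.3, 24.4 and 23.6 TPM, 1.13 ± 0.15). Gli3, which transmits Hedgehog signals and in its repressor form limits them, fell from 12.6, 17.1 and 14.1 to 3.92, 3.87 and 3.88 TPM. Zic1 and Zic4, zinc finger genes that lie side by side and are active in the dorsal midline, fell by less, with log2 differences of -0.69 ± 0.06 and -0.53 ± 0.06, and kept high levels at P0 (75.2, 77.4 and 74.6 TPM and 67.2, 73.4 and 66.2 TPM). Foxj1, the master regulator of motile cilia, fell from 257, 262 and 300.01 to 96.5, 109 and 106 TPM. The multiciliated cell list, to which Foxj1 belongs, had 11 of 13 genes lower and 0 higher (sums of 1281 to 1597 and 500 to 528 TPM). Rfx3, another regulator of cilium genes, rose instead from 23.2, 30.8 and 38.3 to 49.8, 45.2 and 44.8 TPM (log2 difference 0.88 ± 0.09, adjusted p = 0.00297).

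Factors tied to cell division fell together with the markers of dividing cells named above, and their part in the result was not tested. E2f7, a repressor of the E2F family that is itself switched on in S phase, was at 51.3, 49.7 and 52.9 TPM and then at 5.31, 6.21 and 5.13 TPM (-2.69 ± 0.11, adjusted p = 6.36e-09). Myc and Mycn, which drive growth and proliferation, fell from 7.101, 10.9 and 8.26 to 1.12, 1.03 and 1.02 TPM and from 7.45, 9.63 and 8.3003 to 1.99, 0.907 and 0.899 TPM. Trp53, the tumour suppressor p53, fell from 46.3, 65.4 and 54.9 to 19.4, 19.4 and 18.2 TPM.

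Further falls comprised factors of blood formation and of mesenchyme. Nfe2, a bZIP factor of erythroid cells and platelet precursors, had the largest fall among transcription factors, from 15.97, 23.6 and 16.6 to 0.346, 0.374 and 0.282 TPM (log2 difference -3.46 ± 0.13, adjusted p = 5.66e-09). Tal1, required for blood stem cells and erythroid cells, fell from 13.9, 10.2 and 10.51 to 0.784, 0.607 and 0.586 TPM, and Gfi1b, a repressor of the same lineages, from 5.45, 7.03 and 4.47 to 0.883, 0 and 0.03502 TPM. The erythroid sums given above fell alongside, and their part in these falls was not tested. Osr1, a zinc finger gene of mesenchyme, fell from 23.5, 52.96 and 38.6 to 3.48, 2.94 and 3.94 TPM, and Twist1, a bHLH regulator of cranial mesenchyme, from 46.7, 53.6 and 28.8 to 7.17, 5.98 and 6.602 TPM. E12.5 replicate 1 was the lowest of its age for Osr1 and replicate 3 for Twist1, but neither reached the P0 range.

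The largest rises among transcription factors included nuclear receptors and Krüppel-like factors. Tcf21 (chr10:22817281-22820174), a bHLH factor known from the mesenchyme of kidney, lung and heart, had the largest, from 0.367, 1.65 and 3.22 to 24.4, 31.1 and 19.1 TPM (log2 difference 3.44 ± 0.29, adjusted p = 1.05e-05). Its E12.5 libraries differed several-fold among themselves. Esrrb, an orphan nuclear receptor of pluripotent and ion-transporting cells, rose from 0.309, 0.454 and 0.729 to 11.3, 9.46 and 8.58 TPM (2.82 ± 0.11). Klf15 and Klf9, Krüppel-like factors of metabolic control, rose from 1.81, 3.005 and 3.199 to 32.1, 23.998 and 24.2 TPM and from 1.44, 1.98 and 2.15 to 17.7, 13.7 and 14.5 TPM. The naming rule required every P0 library of these 4 genes to lie above every E12.5 library, as was so for 19.2% of all genes tested. Each of the 4 kept its call under all alternatives tried. Id4, an inhibitor of bHLH factors, rose from 23.8, 31.6 and 35.5 to 100.2, 98.2 and 102 TPM, and Nfix, of the nuclear factor I family, from 3.3003, 11.7 and 9.45 to 24.8, 26.7 and 25.3 TPM.

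Nuclear receptors, which are switched by small lipophilic molecules such as hormones and sterols, rose in 15 of 34 tested genes and fell in 8, with a median log2 difference of 0.33. Of these 34, 4 reached 1 TPM at P0 only, and the 26 at 1 TPM in all 6 libraries had a median of 0.05, with 9 rising and 7 falling. Without E12.5 replicate 1 the counts were 11 and 6. Thrb, a receptor for thyroid hormone, rose from 1.04, 2.58 and 3.23 to 8.78, 7.84 and 8.86 TPM (1.74 ± 0.17). The other thyroid hormone receptor gene, Thra, was at 34.6, 56.8 and 52.6 and 60.3, 66.6 and 62.96 TPM (0.70 ± 0.10, adjusted p = 0.0317), a call lost under 8 of the 20 alternatives. Rara and Rarb, which encode receptors for retinoic acid, the active form of vitamin A, went the other way. Rara fell from 17.5, 22.9 and 19.4 to 10.9, 11.5 and 11.3 TPM and Rarb from 14.7, 22.3 and 21.3 to 9.38, 12.04 and 8.56 TPM, with log2 differences of -0.49 and -0.61. Crabp2 and Crabp1, the proteins that carry retinoic acid within cells, fell much more, from 146, 139.8 and 125 to 7.27, 4.37 and 5.76 TPM and from 38.4, 53.4 and 29.7 to 1.72, 0.533 and 0.881 TPM (log2 differences -4.05 ± 0.34 and -3.96 ± 0.24). Stra6, the membrane receptor that takes up retinol from its blood carrier, rose from 6.86, 13.4 and 16.2 to 37.96, 30.8 and 37.3 TPM (1.78 ± 0.17), and the gene of that carrier, Rbp4, was at 3.03, 4.23 and 11.01 and 12.4, 10.3 and 14.4 TPM with overlapping libraries (1.28 ± 0.31, adjusted p = 0.0188, a call that was lost when replicate 1 or 2 of E12.5 or replicate 3 of P0 was left out). Nr2f1, an orphan receptor that patterns the forebrain, fell from 99.98, 92.1 and 101 to 19.6, 20.3 and 18.2 TPM.

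**Figure D3:**
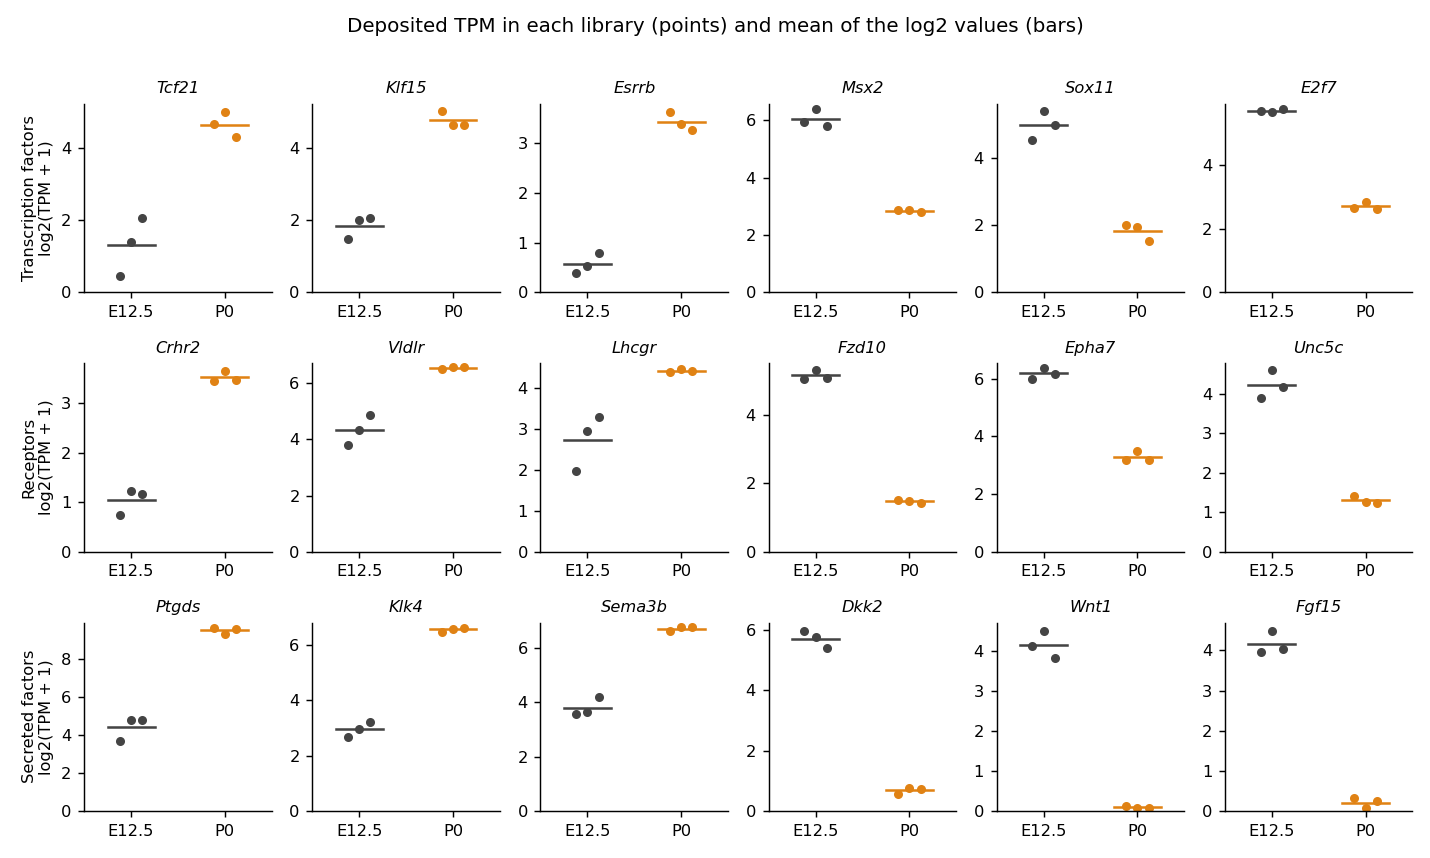
Each panel shows 1 gene, with the 3 libraries of E12.5 (dark) and of P0 (orange) as points on log2(TPM + 1) as deposited and a bar at their mean. Every axis starts at 0. The first 3 genes of each row were higher at P0 in every library and the last 3 lower, with no overlap between the ages. Non-overlap was a condition of the rule for the largest changes of each class, so it is no result for genes named by that rule.

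Among the risers were many genes of the circadian clock, a feedback loop in which activators (Arntl, Clock, Npas2) switch on their own repressors (Per and Cry genes) and a set of output regulators. The list of 20 clock genes was drawn up after values had been seen. Of 19 tested, 16 were called higher at P0, 0 lower and 3 not called, with a median log2 difference of 1.48. Over all genes tested 18.8% were higher and 32.6% lower, with a median of -0.03. Because the list followed the values, its count is no test of the clock genes as a set. Nr1d1 and Nr1d2, which encode the nuclear receptors REV-ERB alpha and beta that repress Arntl, rose from 0.836, 1.22 and 1.44 to 10.2, 6.82 and 7.48 TPM and from 8.34, 10.7 and 14.8 to 45.6, 35.6 and 35.4 TPM. The output factors of the PAR bZIP family rose as well: Dbp from 3.77, 4.72 and 5.89 to 21.5, 17.8 and 17.4 TPM, Tef from 17.3, 25.2 and 21.4 to 71.7, 61.8 and 48.9 TPM and Hlf from 3.09, 6.89 and 7.02 to 19.9, 23.1 and 25.9 TPM. Both arms of the loop were among the rises, since Npas2 went from 0.167, 0.275 and 0.165 to 3.18, 4.19 and 3.62 TPM (1.87 ± 0.14) while Arntl (0.70 ± 0.08) and Clock (0.95 ± 0.08) changed less. Per3 rose from 2.55, 4.34 and 5.34 to 10.9, 11.04 and 11.1 TPM (1.48 ± 0.12, adjusted p = 8.13e-05). Per1 and Per2, the latter with overlapping libraries, had adjusted p of 0.041 and 0.021 and lost the call under 9 and 6 of the 20 alternatives, single libraries left out among them. Cry1, Cry2 and Ciart did not pass (adjusted p of 0.949, 0.91 and 0.399). Within P0, replicate 1 was the highest library for Nr1d1, Nr1d2, Dbp, Tef, Per1 and Per2 and the lowest for Hlf and Per3. The hour of dissection is not given in the sources used here.

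Clock activators bind the E-box, CACGTG, and PAR bZIP factors the D-box, TTATGTAA. Each was searched on both strands in the RefSeq promoters of GRCm38.p6, from 250 bases before to 50 after a gene's start. The E-box, which reads the same on both strands, lay in 7.15% of 32851 promoters and the D-box in 0.938%. Of the clock list 17 genes had 1 or more promoters there: 5 of them (Bhlhe41, Ciart, Cry1, Per1 and Tef) held an E-box and 1 (Per3) the D-box. Counted by promoter, as in the shares above, 6 of 23 held an E-box and 1 the D-box. Ciart and Cry1 were not called. The promoters of Per3, with 2 D-boxes, and of Bhlhe41, a clock repressor gene that rose from 0.336, 0.814 and 0.8604 to 4.34, 3.52 and 4.398 TPM, with 1 E-box, are shown to make these sites visible. Both lie on the minus strand and are printed 5′ to 3′ along the gene, with the motif in capitals. A match of letters is a description of the window, not of binding in this tissue.
Per3, chr4:151044616-151044915: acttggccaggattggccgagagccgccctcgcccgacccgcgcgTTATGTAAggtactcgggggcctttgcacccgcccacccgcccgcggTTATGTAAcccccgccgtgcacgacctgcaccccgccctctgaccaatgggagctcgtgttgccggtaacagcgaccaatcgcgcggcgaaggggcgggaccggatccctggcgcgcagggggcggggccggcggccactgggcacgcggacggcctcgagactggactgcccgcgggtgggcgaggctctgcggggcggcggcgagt
Bhlhe41, chr6:145865371-145865670: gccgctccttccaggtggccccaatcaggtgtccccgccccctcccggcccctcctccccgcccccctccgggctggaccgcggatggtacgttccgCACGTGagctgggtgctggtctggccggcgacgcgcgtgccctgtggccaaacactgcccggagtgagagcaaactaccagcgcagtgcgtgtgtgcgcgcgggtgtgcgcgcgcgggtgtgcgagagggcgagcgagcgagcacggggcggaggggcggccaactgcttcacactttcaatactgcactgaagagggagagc

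The Wnt pathway shifted in its ligands, its inhibitors and its receptors. Wnt proteins bind Frizzled receptors and Lrp5 or Lrp6, R-spondins strengthen the signal through Lgr receptors, and Dkk, Sfrp and Sostdc1 proteins restrain it. Of 14 tested Wnt and R-spondin genes 12 fell and 0 rose, of 13 tested antagonist genes 6 fell and 3 rose, and of 15 tested receptor genes 4 fell and 8 rose. Rspo1 (chr4:124986430-125009099) fell from 25.9, 43.1 and 32.5 to 0.957, 0.811 and 1.41 TPM (log2 difference -3.69 ± 0.17, adjusted p = 2.36e-08), and Wnt1, made by the dorsal midline and the midbrain-hindbrain boundary, from 16.2, 21.3 and 13.004 to 0.0942, 0.0521 and 0.0441 TPM (-3.60 ± 0.16). Wnt3a, the signature ligand of the cortical hem, fell from 14.3, 11.4 and 11.9 to 0.267, 0.364 and 0.499 TPM. These 3 genes were near 1 TPM or lower in the P0 libraries. Wnt5a, a ligand best known for signalling outside the beta-catenin route, was the most abundant at both ages and fell from 112, 130.03 and 180.2 to 53.7, 56.1 and 64.4 TPM (-0.95 ± 0.13). In the hem and roof plate marker list as a whole 7 of 10 tested genes were called lower and 1 (Bmp4) higher, with sums of 425 to 444 TPM at E12.5 and 280 to 288 TPM at P0. The lists overlap, since 5 of those 7 genes are Wnt or R-spondin genes themselves, and the part of the hem markers in the Wnt falls was not tested. Of the 14 ligand genes 6 reached 1 TPM at E12.5 only and could pass the filter in no other way. Without E12.5 replicate 1 the counts were 10 lower and 1 higher.

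Antagonists changed in both directions. Dkk2 (chr3:132085292-132180304) had the largest fall of any secreted factor named here, from 61.4, 52.5 and 41.5 to 0.482, 0.699 and 0.652 TPM (log2 difference -4.62 ± 0.19, adjusted p = 9.53e-09). Frzb, Dkk1 and Sost fell as well, Frzb from 24.4, 23.8 and 24.4 to 2.32, 1.99 and 2.29 TPM and Sost from 14.8, 13.3 and 9.95 to 0.0569, 0.0631 and 0.0796 TPM. Sostdc1, which binds Lrp receptors and BMPs, rose from 57.5, 88.1 and 108 to 746, 715 and 692 TPM (3.40 ± 0.12), Sfrp1 from 56.9, 56.8 and 65.2 to 146, 156 and 158 TPM, and Sfrp5, listed at 0 in E12.5 replicates 1 and 3, reached 5.37, 4.58 and 4.79 TPM at P0. Through Sostdc1 the summed TPM of the antagonists rose while most of its members that changed fell.

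Frizzled genes changed in both directions too. Fzd10 (chr5:128600844-128604093) fell from 32.4, 38.7 and 33.1 to 1.87, 1.81 and 1.69 TPM (log2 difference -3.33 ± 0.11, adjusted p = 2.16e-09), the largest fall of the receptor class under the naming rule. Fzd4, Fzd5 and Fzd7 rose, from 12.9, 13.8 and 17.4 to 37.1, 39.5 and 36.5 TPM, from 1.67, 2.19 and 2.998 to 7.42, 9.29 and 8.82 TPM and from 8.52, 11.9 and 11.4 to 27.2, 27.97 and 26.4 TPM. The coreceptor gene Lrp6 rose from 33.8, 39.8 and 42.5 to 63.4, 66.2 and 64.99 TPM (1.01 ± 0.06). Unlike the ligands, all 15 tested receptor genes reached 1 TPM in every library.

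**Figure D4:**
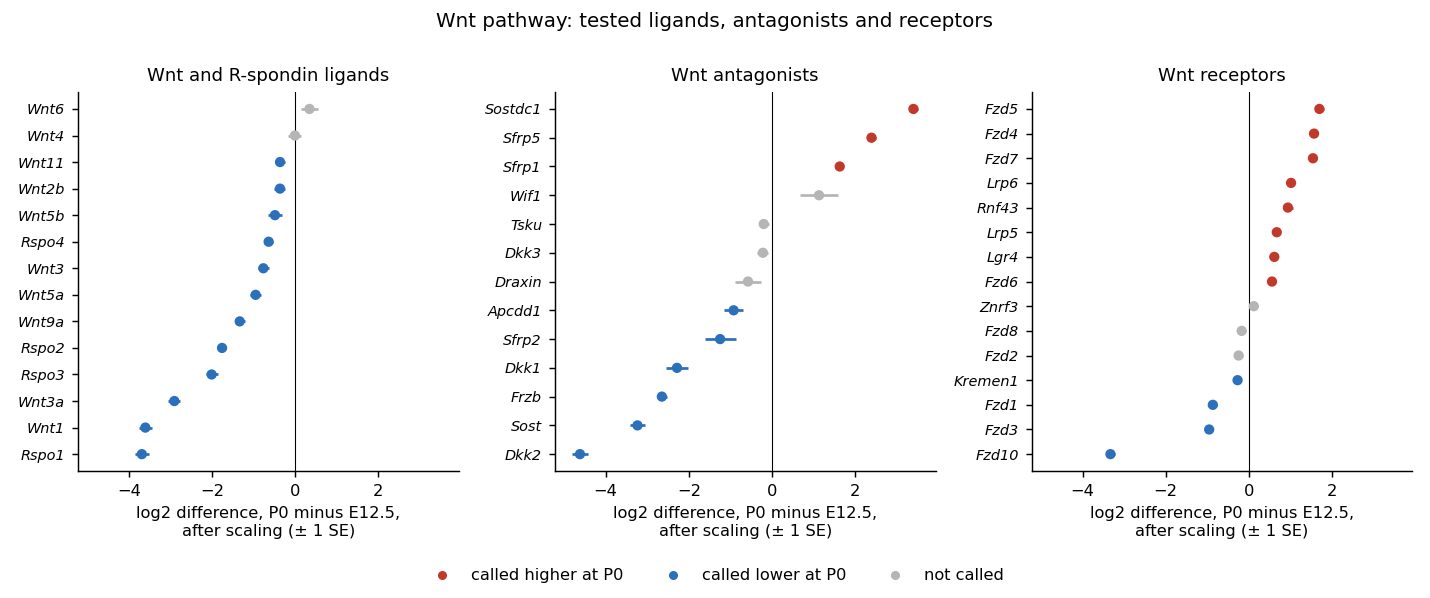
Points give the log2 difference between P0 and E12.5 after scaling for each tested Wnt pathway gene, with a line of ± 1 SE. Blue genes were called lower at P0, red genes higher and grey genes neither. No ligand is red, whereas 8 of 15 receptors and 3 of 13 antagonists are.

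In the TGF-beta family, 5 of 13 tested ligand genes rose and 5 fell. Bmp6 rose from 22.8, 22.97 and 23.6 to 58.4, 54.3 and 56.7 TPM (1.52 ± 0.08), and Bmp4 and Bmp7, whose proteins induce choroid plexus epithelium from the midline, rose slightly from 21.1, 22.6 and 20.3 to 26.9, 30.03 and 25.4 TPM and from 38.3, 37.8 and 41.9 to 50.5, 47.2 and 50.5 TPM. Tgfb2 rose from 6.46, 15.8 and 8.87 to 23.9, 23.5 and 29.97 TPM while Tgfb1 fell from 19.9, 22.9 and 18.03 to 5.11, 5.85 and 4.99 TPM. Of the BMP inhibitors Nog fell from 23.9, 20.6 and 23.4 to 6.74, 6.28 and 6.72 TPM and Bmper rose from 1.56, 1.44 and 1.21 to 10.04, 10.8 and 9.06 TPM. Fgf15, a fibroblast growth factor of the embryonic brain, fell from 14.5, 21.2 and 15.5 to 0.239, 0.0444 and 0.184 TPM (-3.52 ± 0.14), and Tgfa, a ligand of the epidermal growth factor receptor, rose from 0.273, 0.504 and 0.51003 to 9.304, 8.58 and 10.001 TPM (2.81 ± 0.09). In the joint list of Notch and Hedgehog receptors, which includes Notch ligands, 8 of 16 fell and 0 rose on both scales (8 and 3 after scaling alone). Notch3, a receptor of mural cells, fell from 11.6, 14.01 and 11.9 to 3.88, 3.36 and 3.04 TPM, whereas the Hedgehog receptor gene Ptch1 (31.7, 45.9 and 53.2 and 40.8, 49.1 and 49.4 TPM) and Notch2 (58.1, 68.2 and 83.1 and 70.6, 75.6 and 73.8 TPM) did not pass on both scales.

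Axon guidance genes steer growing nerve fibres and also vessels, and most genes on the joint list of their receptors and ephrins fell. Of 25 tested guidance receptor and ephrin genes 19 fell and 0 rose (19 and 4 after scaling alone), and of 11 Eph receptors 7 fell and 0 rose (7 and 2). The median log2 differences were -0.93 and -0.69, against -0.21 for all receptors. Unc5c, a netrin receptor that mediates repulsion, fell from 13.99, 23.4 and 17.1 to 1.67, 1.38 and 1.36 TPM (-2.59 ± 0.16), and Robo1, a Slit receptor, from 12.4, 22.8 and 12.2 to 2.28, 1.596 and 1.67 TPM. Epha7 (chr4:28813131-28967499) fell from 62.8, 81.9 and 71.7 to 7.99, 10.2 and 8.104 TPM (-2.60 ± 0.13, adjusted p = 2.99e-08), Epha3 from 14.4, 21.2 and 15.04 to 1.41, 0.462 and 0.629 TPM and Ephb2 from 14.2, 18.4 and 13.6 to 1.899, 1.45 and 1.88 TPM. Of the neuron, progenitor and endothelium markers 6 of 14, 7 of 11 and 12 of 14 were lower (sums above), and their part in these falls was not tested. Of the secreted guidance cues 14 of 29 fell and 3 rose. Sema3a, a repellent, fell from 10.3, 13.99 and 8.87 to 1.04, 1.09 and 1.42 TPM and Slit2, at a high level in both ages, from 96.4, 119 and 127 to 58.2, 56.95 and 58.1 TPM. The rises were Ntn4, Ntn1, which encodes netrin-1 and went from 1.47, 4.18 and 3.26 to 14.7, 14.3 and 14.2 TPM, and Sema3b, from 10.9, 11.6 and 17.1 to 96.7, 107 and 108 TPM (3.16 ± 0.10, adjusted p = 2.62e-08).

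Of the 42 endocytic and scavenger receptors tested 13 rose (31%) and 15 fell (35.7%). Of the 25 peptide and hormone receptors of the G protein-coupled type 8 rose (32%) and 13 fell (52%). Over all genes tested the shares were 18.8% and 32.6%. Folr1, the folate receptor by which the choroid plexus moves folate into the fluid, rose from 217, 244 and 324 to 1376, 1429.7 and 1438 TPM (2.73 ± 0.09), the largest rise of the class under the naming rule. Crhr2 (chr6:55090049-55133016), a receptor for the urocortin peptides, rose from 0.673, 1.33 and 1.26 to 9.89, 11.6 and 10.1 TPM (2.53 ± 0.08, adjusted p = 4.54e-08). Vldlr, a receptor for lipoproteins and reelin, rose from 12.9, 18.97 and 28.6 to 89.7, 94.03 and 93.7 TPM, and Adora2b, an adenosine receptor, from 2.23, 3.23 and 3.96 to 16.9, 14.6 and 16.3 TPM. Lepr, the leptin receptor, rose from 13.2, 17.9 and 19.2 to 55.5, 58.5 and 55.6 TPM and Ntrk2, the receptor for brain-derived neurotrophic factor, from 31.2, 35.7 and 44.9 to 117, 106 and 114 TPM. Bdnf itself was at 2.15, 1.904 and 1.56 TPM and fell to 0.262, 0.391 and 0.309 TPM. Lhcgr (chr17:88716481-88791990), the receptor for luteinizing hormone, rose from 2.92, 6.68 and 8.74 to 19.7, 21.1 and 20.2 TPM (1.90 ± 0.20), with E12.5 replicate 1 lowest. Htr2c, the serotonin receptor for which this tissue is known, rose from 112, 161 and 234 to 348, 326 and 333 TPM, more modestly on the log2 scale (1.33 ± 0.14) than Crhr2.

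The endothelin receptors moved in opposite directions. Ednra, of smooth muscle, fell from 17.4, 24.1 and 22.7 to 6.37, 6.53 and 5.75 TPM and Ednrb rose from 55.5, 82.8 and 88.6 to 197, 217 and 209 TPM, with log2 differences of -1.33 ± 0.12 and 1.75 ± 0.09. The insulin receptor gene Insr and the related Igf1r rose, from 12.8, 15.9 and 16.2 to 27.6, 31.5 and 33.3 TPM and from 21.2, 25.7 and 28.2 to 39.6, 38.6 and 35.04 TPM. Among their ligands Ins2, a gene of insulin, rose from 8.99, 7.196 and 12.7 to 29.6, 29.98 and 37.8 TPM (1.92 ± 0.15), and Igf2, which was far more abundant, was at 1096, 1062 and 1081 and 1263, 1210.2 and 1319 TPM (0.51 ± 0.10, adjusted p = 0.019, a call that did not hold when P0 replicate 3 was left out). The binding protein gene Igfbp2 rose from 1053, 1046 and 1112 to 1944, 1897 and 2062 TPM while Igfbp5 fell from 40.2, 72.5 and 68.9 to 26.5, 18.5 and 28.02 TPM. Lrp2, the endocytic receptor megalin, fell from 14.2, 12.7 and 13.97 to 2.07, 1.87 and 1.48 TPM. Aplnr, the apelin receptor of vessel sprouts, fell from 41.9, 43.99 and 47.3 to 8.28, 8.36 and 6.37 TPM, together with the endothelial markers, whose part was not tested.

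The list of carriers and apolipoproteins held the largest share of rises of any family. Of its 29 tested genes 23 rose and 1 (Smoc2, a matrix protein) fell, with a median log2 difference of 1.43. The list is broader than its name, since its risers include enzymes such as Pon1, Enpp2 and Lpl and the matrix proteins Sparc and Smoc1. Ptgds (chr2:25466709-25470046), which encodes a prostaglandin D synthase that is also a lipid carrier in cerebrospinal fluid, rose from 11.6, 25.99 and 25.98 to 776, 626 and 768 TPM (log2 difference 5.36 ± 0.26, adjusted p = 9.41e-08), the largest rise of the 3 classes under the naming rule. It is known from meningeal cells as well as epithelium, and the fibroblast and meninges markers Dcn, Ogn and Pdgfra were called higher at P0 while 10 others were lower. Their part in the rise was not tested. Clu, an extracellular chaperone, rose from 138, 167 and 176 to 1102, 1046 and 1131 TPM, Trf, the iron carrier transferrin, from 21.6, 36.9 and 44.6 to 164, 161 and 177 TPM, and Apoe, of lipid transport, from 449, 682 and 543 to 2076, 2119.7 and 2049.9 TPM. Pon1, an antioxidant enzyme of lipoproteins usually associated with liver, rose from 0.473, 0.869 and 1.71 to 31.9, 34.2 and 32.98 TPM (4.15 ± 0.15). Enpp2, the enzyme autotaxin, rose from 262, 322 and 441 to 2992, 3207 and 3211 TPM at P0 and stood at 22527 TPM on average at P14.

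Proteases and their inhibitors were on the move in both directions. Of the inhibitors 19 of 33 tested rose and 9 fell (median log2 difference 1.04). A2m, a broad trap of proteases, rose from 17.6, 29.4 and 36.3 to 225, 239.7 and 245 TPM (3.37 ± 0.17), Timp3, an inhibitor of metalloproteases, from 46.5, 52.6 and 58.3 to 177, 167 and 163 TPM and Cst3, cystatin C, from 261, 255 and 275 to 591, 600.2 and 593 TPM. Timp1, of the same family as Timp3 and encoded on the X chromosome, fell from 10.8, 12.1 and 8.47 to 2.48, 2.42 and 2.92 TPM. Of the extracellular proteases and relatives 16 of 55 rose and 22 fell (29.1% and 40%, against 18.8% and 32.6% of all genes tested). Among the 38 at 1 TPM in all 6 libraries 9 rose and 14 fell, so the balance of this list lay near that of all genes. Adamtsl3 (chr7:82335694-82614450), a matrix protein that resembles ADAMTS proteases without the catalytic part, rose from 0.708, 0.202 and 0.543 to 24.97, 30.96 and 29.5 TPM (4.26 ± 0.22, adjusted p = 5.16e-08), and Klk4 (chr7:43881160-43885804), a serine protease best known from developing tooth enamel, from 5.33, 6.87 and 8.33 to 89.2, 95.7 and 97.4 TPM (3.83 ± 0.12). Adamts3, which matures procollagen, fell from 12.2, 14.05 and 12.1 to 1.79, 1.39 and 2.08 TPM.

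Peptide hormones and neuropeptides fell in 9 of 22 tested genes and rose in 5 (40.9% and 22.7%, against 32.6% and 18.8% of all genes tested). Pthlh, the parathyroid hormone-related peptide, fell from 78.6, 97.5 and 115 to 6.15, 7.43 and 6.84 TPM (-3.33 ± 0.09, adjusted p = 3.81e-09), and Calca, which encodes calcitonin and its related peptide, from 37.9, 28.01 and 19.8 to 1.81, 2.88 and 2.07 TPM. Penk, the precursor of enkephalins, rose from 159, 262 and 266 to 588, 688 and 703 TPM (1.84 ± 0.17). Cbln1, a synapse organiser of the complement-like family, fell from 24.7, 36.3 and 28.6 to 1.03, 0.809 and 2.19 TPM. Mdk, the growth factor midkine, was among the most abundant secreted factors at E12.5 and fell from 516, 728 and 538 to 153, 149 and 152 TPM. Vegfa, which maintains the fenestrated vessels of this tissue, rose from 92.3, 99.3 and 108 to 145, 158 and 140.4 TPM (0.85 ± 0.06), although 12 of 14 endothelium markers were lower.

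Of the chemokine genes 4 of 16 rose and 4 fell (25% each, against 18.8% and 32.6% of all genes tested). Ppbp and Pf4, which platelets carry in their granules, fell from 98.4, 73.1 and 69.4 to 2.23, 1.45 and 1.32 TPM and from 198, 124 and 135 to 26.5, 28.7 and 21.6 TPM, alongside the erythroid markers, whose part was not tested. Cxcl16 rose from 1.36, 1.64 and 1.07 to 5.02, 6.88 and 6.45 TPM. Cytokine genes rose in 9 of 21 tested and fell in 3 (42.9% and 14.3%). Of these 21, 3 reached 1 TPM at P0 only and 1 at E12.5 only, which the filter favours. Among the 15 at 1 TPM in all 6 libraries 4 rose and 2 fell. Lgals3, a galectin of macrophages and epithelia, went from 2.38, 2.59 and 3.19 to 18.4, 19.6 and 23.1 TPM (2.67 ± 0.09). Lgals1 fell from 428, 525 and 342 to 111, 101 and 109 TPM.

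Outside the 3 classes and the marker lists, the genes with the largest changes had varied roles. Ppp1r1b, which encodes DARPP-32, a phosphatase inhibitor best known from dopamine-responsive neurons, rose from 1.53, 2.16 and 2.16 to 153, 161 and 165 TPM (log2 difference 5.88 ± 0.05, adjusted p = 1.31e-11), the largest rise under the naming rule. Mt3, a metal-binding metallothionein, rose from 4.44, 6.21 and 8.25 to 326, 296 and 293 TPM, Slco1a4, a transporter of organic anions and thyroid hormone, from 2.83, 7.44 and 10.03 to 206, 226 and 221 TPM, Slc26a7, an anion exchanger, from 0.584, 0.904 and 0.906 to 43.9, 55.3 and 48.6 TPM, Sult1a1, a sulfotransferase, from 0.705, 1.56 and 2.32 to 87.6, 100.4 and 92.2 TPM, and Ephx1, an epoxide hydrolase, from 5.56, 7.27 and 6.56 to 152, 141 and 137 TPM. S100a8 and S100a9, abundant in neutrophils, were also on this list, with 36.5, 50.8 and 41.9 TPM and 47.9, 48.6 and 44.2 TPM at P0. No list of neutrophil markers was drawn up, and the part of such cells was not tested. S100a9 was at 1.996, 3.34 and 39.2 TPM in the P14 libraries, so that 1 library of that age stood near the P0 level and the other two far below. The largest falls were in Hsd3b6, a steroid dehydrogenase, from 64.3, 91.1 and 94.7 to 0.0497, 0 and 0 TPM (-5.88 ± 0.17), Kel, the red cell antigen Kell, from 38.3, 62.3 and 56.9 to 0.105, 0.117 and 0.238 TPM, Hmga2, a chromatin protein of embryonic progenitors, from 84.4, 74.5 and 63.7 to 0.857, 0.726 and 0.982 TPM (-4.94 ± 0.17), and Slitrk6, a membrane protein that shapes nerve growth, from 67.9, 86.03 and 109 to 1.92, 1.697 and 1.48 TPM. Vcan, a proteoglycan of embryonic matrix, fell from 93.7, 134 and 124 to 6.73, 4.88 and 5.71 TPM.

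The table lists 282 tested miRNA genes, of which 25 were called higher (8.87%) and 12 lower (4.26%) at P0. Both shares lay below the 18.8% and 32.6% of all genes tested. Their values come from an mRNA library and reflect reads on the annotated precursor, often shared with a host transcript, not the mature miRNA. Mir204 lies within Trpm3 on the same strand (chr19:22750605-22750672) and both rose, Mir204 from 12.8, 29.7 and 52.5 to 103, 101 and 89.1 TPM (2.07 ± 0.33) and Trpm3, a cation channel gene, from 292, 367 and 486 to 899.99, 1013 and 956 TPM (1.64 ± 0.09). Mir449a, Mir449b and Mir449c lie within Cdc20b, a gene switched on as multiciliated cells form, which fell from 292, 255 and 335 to 36.3, 35.5 and 26.6 TPM (-2.84 ± 0.32). Mir449b fell from 446, 101 and 442 to 56.9, 22.3 and 36.3 TPM (-2.59 ± 0.79, adjusted p = 0.0142), a call lost without E12.5 replicate 1 or P0 replicate 2. Mir449c had overlapping libraries (13.3, 36.3 and 43.4 and 19.2, 8.62 and 10.7 TPM, adjusted p = 0.0438) and lost its call under 10 of the 20 alternatives, 4 of them with a single library left out, and Mir449a did not pass (adjusted p = 0.262). Mir34b, of the same seed family, was listed at 0 in every E12.5 library and at 10.3, 11.1 and 9.53 TPM at P0, and its neighbour Mir34c was at 11.6, 4.46 and 18.3 and 5.49, 11.3 and 16.02 TPM without a call. Mir451a, a miRNA of red cells, fell from 49.2, 19.2 and 31.8 to 5.75, 0 and 0 TPM.

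Mature sequences from RefSeq (GRCm38.p6) are shown, 5′ to 3′, for the precursors these sentences turn on, with the seed (bases 2 to 8, the part that pairs with targets) in capitals. They make visible that miR-449a, miR-449c and miR-34b have 1 seed in common, GGCAGUG, while the seeds of miR-204 and miR-451a differ.
miR-204-5p: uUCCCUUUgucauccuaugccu
miR-449a-5p: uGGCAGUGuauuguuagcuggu
miR-449c-5p: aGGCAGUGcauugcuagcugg
miR-34b-5p: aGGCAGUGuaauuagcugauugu
miR-451a: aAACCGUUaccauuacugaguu

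Some genes that were higher at P0 than at E12.5 were lower again at the later ages. By a rule set after values had been seen, a gene stood out at birth when its P0 mean was at least 10 TPM and at least 3-fold above the mean of every other age and when all P0 libraries exceeded all other 9. The rule, which fixes this direction, found 40 features, 26 of them protein-coding. The largest ratios of the P0 mean to the highest other mean were those of Stfa2 (164), Gm5483 (42.6) and Stfa1 (22.6). S100a8 and S100a9, the neutrophil-abundant genes named above, and the globin gene Hbb-bs met the rule as well. The part of blood cells in these peaks was not tested. Klk4 had means of 6.84, 94.1, 1.72 and 0.153 TPM at E12.5, P0, P14 and A6m, and Adamtsl3 of 0.484, 28.5, 3.13 and 0.4802 TPM. Lhcgr went from 20.4 TPM at P0 to 1.39 and 0.114 TPM, Wnk4, a kinase that regulates chloride transporters, from 29.2 to 6.34 and 3.09 TPM, and Ugt1a6b, a glucuronidation enzyme, from 112 to 7.6996 and 0.415 TPM. Wfikkn2, a secreted inhibitor of GDF8 and GDF11, had means of 74.9, 325, 80.05 and 47.9 TPM. Slc6a13, a transporter of taurine and GABA, had means of 2.01, 20.8, 2.48 and 0.773 TPM, and Col9a2, a collagen gene, of 16.2, 70.8, 3.55 and 0.592 TPM. Outside the rule because its E12.5 mean was less than 3-fold lower, Penk had means of 229, 659, 8.67 and 2.41 TPM. In contrast, Crhr2 went on to 27.2 and 37.5 TPM and Tgfa to 16.7 and 27.5 TPM.

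**Figure D5:**
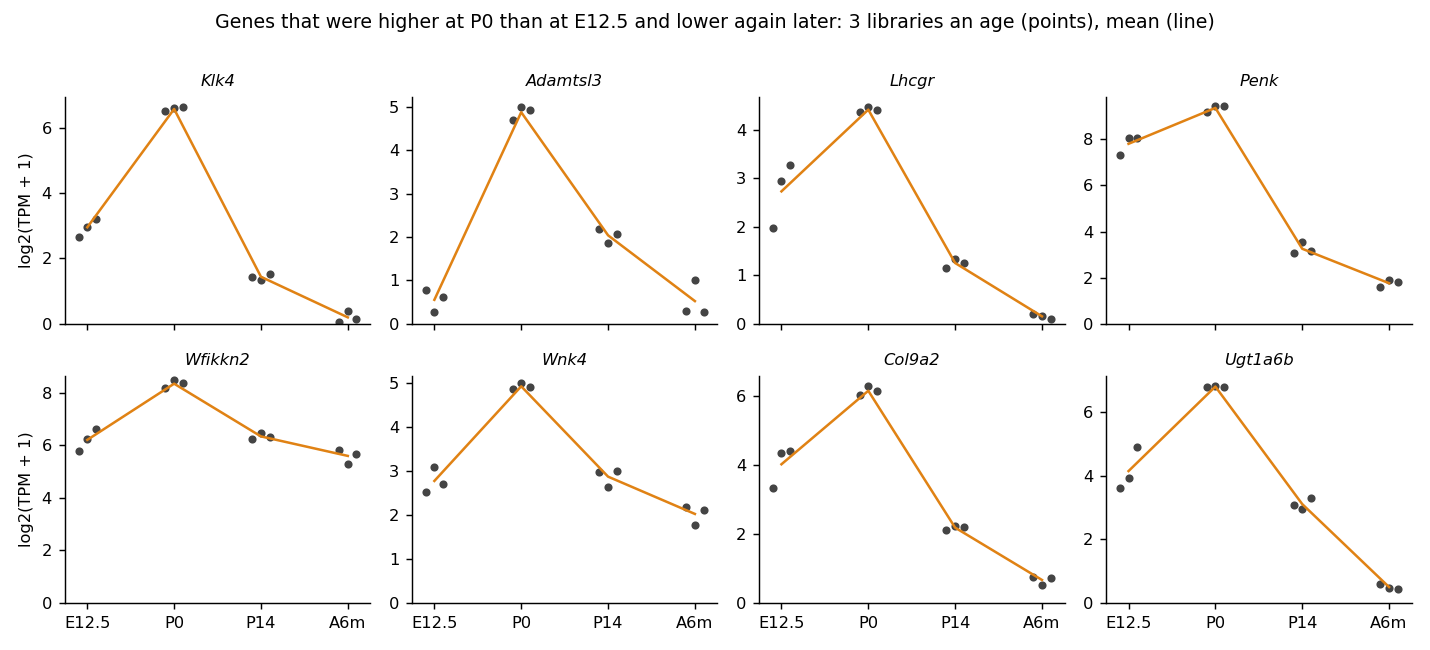
Each panel shows 1 gene over the 4 ages, with the 3 libraries of an age as points on log2(TPM + 1) as deposited and a line through their means. All 8 genes have their highest mean at P0, and each of them except Penk meets the rule for standing out at birth.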

How the data were processed

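RNA was extracted with Trizol from choroid plexus of strain B6 and made into libraries with the Kapa mRNA HyperPrep kit, per the labels' protocols. The authors deposited 1 table of TPM values, made with kallisto on GRCm38 per the submitters' processing notes, with no version given in the sources used here. TPM holds no depth, and the sequencing depth is therefore unknown. A value of 0 is reported as listed at 0. The values of 7 other columns, which match no sample labels, were not used.

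Tested genes had at least 1 TPM in at least 3 of the 6 E12.5 and P0 libraries. log2(TPM + 1) was fitted with limma 3.58.1 (R 4.3.3, trend) on 12 libraries as 4 age means with 8 residual degrees of freedom, on the deposited values and after median-of-ratios scaling. Calls needed a Benjamini-Hochberg adjusted p under 0.05 over all genes tested on both scales, with the same sign. Named genes were, per class and direction, the 6 largest changes among called genes whose higher mean reached 5 TPM and whose ages did not overlap, 12 outside the classes (at least 20 TPM), and up to 2 per family. Other names, the clock and retinoid genes among them, were chosen after their values were seen. The text prints a part of the genes the rule gives, and 1 of them is not reported here. The members and lists were chosen with earlier results of these data known. On simulated data the test recovered 85 of 100 genes given a log2 change of 1 and 99 of 100 given 2, with 6 false calls among 16458. That simulation changed only 200 genes, none of them at the lowest levels, as many up as down. In the data 51.4% of genes were called, so these rates need not hold there or for low genes. Positions come from GENCODE M21 and promoters and miRNAs from RefSeq (GRCm38.p6). P-values measure the spread between these libraries. The alternatives changed scaling, pseudocount, filter, libraries and test.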

Additional observations from a re-analysis of the deposited data

How the results depend on the processing

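Depth is unknown and the spread rests on 3 libraries an age, so low genes are the least certain. Of the 246 named genes that were called, 198 kept their call in each of 20 alternatives and 48 lost it in 1 or more. No called gene among those named changed sign, but the balance of the secreted class (128 higher and 149 lower) and of the bZIP factors (11 and 13) turned as deposited alone. Leaving out each library in turn gave 7771 to 8794 calls, 2809 to 3450 higher and 4962 to 5344 lower. It gave 67 to 76 transcription factors higher and 178 to 198 lower, 71 to 79 receptors higher and 140 to 151 lower, and 124 to 134 secreted factors higher and 113 to 121 lower. Against a 1.5-fold threshold (limma's treat) 2927 genes passed, 1224 higher and 1703 lower. Of these 29 and 91 were transcription factors, 34 and 71 receptors, and 71 and 62 secreted factors. The number higher rose to 4934 with median-of-ratios scaling alone, 5140 with quantile normalization alone (117 transcription factors) and 4831 without the 10 most abundant genes alone, against 3134 as deposited alone, and the cause was not tested. A mean of at least 5 TPM, which tests fewer genes, left 87 receptors lower, 84 secreted factors higher and 71 lower. Only genes at 1 TPM in all 6 libraries, an alternative added after seeing the data, left 76 secreted factors lower. Replicate numbers did not pair the samples: the deviations of same-numbered libraries correlated at -0.022, -0.071 and -0.025. With the replicate number as a block 8382 genes were called, 3053 higher and 5329 lower, and 8266 calls were kept.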

Other observations

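The calls differed by kind of gene in GENCODE M21. Of 13547 protein-coding genes tested 19.7% were called higher at P0 and 36.1% lower. Of 454 lincRNA genes, which encode no protein, 20.9% were higher and 21.8% lower. Of 125 small nuclear RNA genes, whose products take part in splicing, 5 were higher (4%) and 52 lower (41.6%). Of 158 small nucleolar RNA genes, which guide RNA modification, 3 were higher (1.9%) and 23 lower (14.6%). Both small nucleolar shares lay below the 18.8% and 32.6% of all genes tested. Of 13 mitochondrial tRNA genes 9 were higher and 0 lower. E12.5 replicate 1 had 16.4% of its TPM in the ribosomal RNA-associated and small-RNA features picked after seeing its values, and its part in these counts was not tested.

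In the list of astrocyte and oligodendrocyte markers 4 of 7 tested were called higher at P0 and 0 lower, against 18.8% and 32.6% of all genes tested. The 4 were Aldh1l1, Aqp4, Gfap and Pdgfra, the last also a fibroblast marker. Of the 7, 1 reached 1 TPM at P0 only, and among the 5 at 1 TPM in all 6 libraries 2 were higher. The sums were 58.7 to 82.8 TPM at E12.5 and 163 to 200.04 TPM at P0. Of 12 macrophage markers 4 were lower (Mrc1, Adgre1, Cx3cr1 and Csf1r) and 0 higher, with sums of 199.96 to 248 and 140.1 to 170.0 TPM. The share of lower ones, 33.3%, lay near the 32.6% of all genes tested. Among the erythroid markers Hbb-bs, an adult beta globin gene, was the 1 called higher, while the embryonic globin genes Hbb-y, Hba-x and Hbb-bh1 were lower. The globins share near-identical copies, so the split of reads between them is uncertain.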
